A study of Mus musculus with 9 samples.

Results

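The miR-99, miR-100 and miR-125 names of mouse milk fat were chosen as the 7 mature miRNAs of the deposited count table that are called mmu-miR-99a-5p, mmu-miR-99b-5p, mmu-miR-99b-3p, mmu-miR-100-5p, mmu-miR-125a-5p, mmu-miR-125a-3p and mmu-miR-125b-5p, out of 1915 mature names in all. The prefix mmu, for Mus musculus, is left out below. All 7 had counts in all 9 libraries, and none was lost to the minimum count that left 312 names for testing. The high-fat group was 4 ICR (CD1) dams on a diet that drew 60% of its energy from fat, and the control group was 5 ICR dams on a diet that drew 10%. Both diets drew 7% of their energy from sucrose, and the energy content was 5.24 kcal per g for the high-fat and 3.85 kcal per g for the control diet. Diets began at 4 weeks of age, 4 weeks before mating, and went on through pregnancy and lactation. ICR is an outbred stock, so the dams of a group differ in genotype, and all 9 were nursing their first litter. Milk was taken on lactation day 10, its fat layer was spun, washed in buffer and spun again, and 1 small RNA library was made per dam. The dams are therefore the replicates, though before mating they shared cages in pairs within a diet, and which dams shared one is not given.

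A miRNA is cut from a hairpin precursor, and either arm of the hairpin, called 5p or 3p, can be loaded into an Argonaute protein, where bases 2 to 8 of the miRNA, its seed, lead the pairing with target mRNAs. The 5p arms of miR-99 and miR-100 share 1 seed and are known repressors of mTOR and of other parts of the insulin and IGF signalling pathway. The 5p arms of miR-125 descend from lin-4, the first miRNA described in Caenorhabditis elegans, and are known to repress Lin28 and to act in blood cells, muscle and epithelia. In vertebrates a miR-99 or miR-100 gene, a let-7 gene and a miR-125 gene lie side by side on several chromosomes. In the mammary gland these miRNAs have been studied mainly in development and cancer.

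The mature sequences show which names can be told apart by their reads and which share a seed, and all 7 were found in the RefSeq miRNA table (build GRCm38.p6). They are written 5′ to 3′ with the seed in capitals.
miR-99a-5p: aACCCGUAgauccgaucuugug
miR-100-5p: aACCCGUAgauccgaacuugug
miR-99b-5p: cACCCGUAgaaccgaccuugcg
miR-125a-5p: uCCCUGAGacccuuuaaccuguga
miR-125b-5p: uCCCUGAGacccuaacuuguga
miR-99b-3p: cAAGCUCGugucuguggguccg
miR-125a-3p: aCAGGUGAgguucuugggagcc

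The 5p names fall into a pair of seed groups, miR-99a, miR-99b and miR-100 with ACCCGUA and miR-125a and miR-125b with CCCUGAG. miR-99a-5p differs from miR-100-5p by 1 base of 22, the substitution A16U counted from the 5′ end of miR-100-5p. miR-99b-5p differs from miR-100-5p by 4 bases, A1C, U11A, A16C and U21C, all outside the seed. miR-125a-5p and miR-125b-5p share their first 13 bases and then differ. The labels do not say how many mismatches the read counting allowed, so a share of miR-99a-5p reads with an error at base 16 could be counted as miR-100-5p, or the reverse. miR-10a-5p, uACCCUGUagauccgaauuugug, resembles the miR-99 names along its length but has another seed, ACCCUGU, and was not counted among them.

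The 7 names come from 3 stretches of the genome. miR-99b lies on chromosome 17 at chr17:17830194-17830215 for its 5p arm and chr17:17830232-17830253 for its 3p arm, on the plus strand in an intron of Spaca6. miR-125a lies 3′ of it at chr17:17830817-17830840 and chr17:17830855-17830876, in an annotated exon of Spaca6, with let-7e between them. The mature arms of the 3 hairpins span 683 bases. miR-99a-5p lies at chr16:77598940-77598961 in an intron of the non-coding gene Mir99ahg, and one copy of miR-125b-5p lies within an intron of the same gene at chr16:77646279-77646300. miR-100-5p lies at chr9:41531437-41531458 and the other copy of miR-125b-5p at chr9:41581940-41581961, both in introns of the non-coding genes 3110039I08Rik and Gm49317. Gm48742 has an exon on the opposite strand at miR-100, and Gm28119 has an exon on the same strand at miR-125b-1. Coordinates and annotation are GRCm38, from RefSeq and GENCODE release M21. The mature sequence of miR-125b-5p is the same from both genes, and its 2 rows in the table differed by at most 2 counts in a library, so the counts do not show which gene it came from.

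Library totals ran from 1905838 to 3897109 counts in the high-fat libraries and from 837817 to 2750482 in the control libraries. Levels are given as counts per 1000000 of the library's own total (CPM), and the level that 3 counts stand for, the limit a count of 0 sets, was 0.770 CPM in the deepest and 3.58 CPM in the shallowest library. miRNAs of the milk-secreting epithelium, 8 names led by miR-146b-5p and miR-148a-3p, made up between 488089 and 518490 CPM of the high-fat and between 461066 and 517870 CPM of the control libraries. Several libraries stood apart in miRNAs of other cells, high-fat libraries 1 and 3 in those of leukocytes. The 5 leukocyte names summed to 11418 CPM in high-fat library 1 and 2874 CPM in high-fat library 3, against 77.7 CPM in library 2 and 251 CPM in library 4 of that diet and 356 to 762 CPM in controls. High-fat library 3 also held 616 CPM of the 3 red cell names and 91.0 CPM of the 3 striated muscle names, of which miR-206-3p was at 0 in every library, against at most 152 and 5.62 CPM in any other library. High-fat library 1 had the lowest red cell sum, 19.7 CPM. The 5 stroma names summed to 11660 to 25741 CPM in high-fat and 10358 to 19156 CPM in control libraries, highest in high-fat library 4. The 3 basal and squamous names summed to 10918 CPM in control library 5, mostly miR-203-3p, against at most 4847 CPM in any other library. The 2 endothelium names summed to 10.5 to 29.1 CPM in high-fat and 6.43 to 22.0 CPM in control libraries. For the 2 neuron names it was 7.18 to 32.5 CPM and 5.63 to 17.9 CPM.

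miR-99b-5p, miR-99a-5p and miR-125a-5p were the abundant names of the 7, and the other 4 were about an order of magnitude lower. Over the 9 libraries the mean level was 1318 ± 223 CPM for miR-99b-5p, 1251 ± 401 CPM for miR-99a-5p and 1022 ± 388 CPM for miR-125a-5p (SD, n = 9 each). These put them at places 55, 61 and 65 by mean level among 828 detected names. miR-125b-5p followed with 155 ± 105 CPM, miR-99b-3p with 93.2 ± 18.2 CPM, miR-100-5p with 69.9 ± 15.9 CPM and miR-125a-3p with 50.2 ± 13.3 CPM (SD, n = 9 each). The mature names are 22 to 24 bases long, so no scaling by length was made, and adapter ligation can favour some sequences over others, so levels of different names are compared only roughly.

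The 3 abundant names could not be put in a fixed order. miR-99b-5p was above miR-99a-5p in 6 of 9 libraries, and miR-99a-5p was above miR-125a-5p in 5 of 9. The step from miR-125a-5p to miR-125b-5p was clear, with miR-125a-5p between 4.40 and 13.2 times as high within a library and no overlap of their ranges. Below it, miR-125b-5p was above miR-99b-3p in 7 of 9 libraries, miR-99b-3p above miR-100-5p in 8 of 9 and miR-100-5p above miR-125a-3p in 8 of 9, with overlapping ranges at each step. Paralogs of nearly the same sequence thus stood far apart in level, with miR-99a-5p from 8.87 to 32.6 times as high as miR-100-5p.

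The 7 names also differed in how much they varied between dams. miR-99b-5p varied least, with the highest library 1.69 times the lowest, and miR-125b-5p most, with the highest 8.41 times the lowest. The coefficient of variation of miR-125b-5p was 105% among high-fat and 16.5% among control libraries, and that of miR-125a-5p 55.4% and 25.2%. For miR-99b-5p it was 13.9% among high-fat and 18.2% among control libraries. Of the 312 tested names, 41 had a coefficient of variation over the 9 libraries above that of miR-125b-5p.

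**Figure D1:**
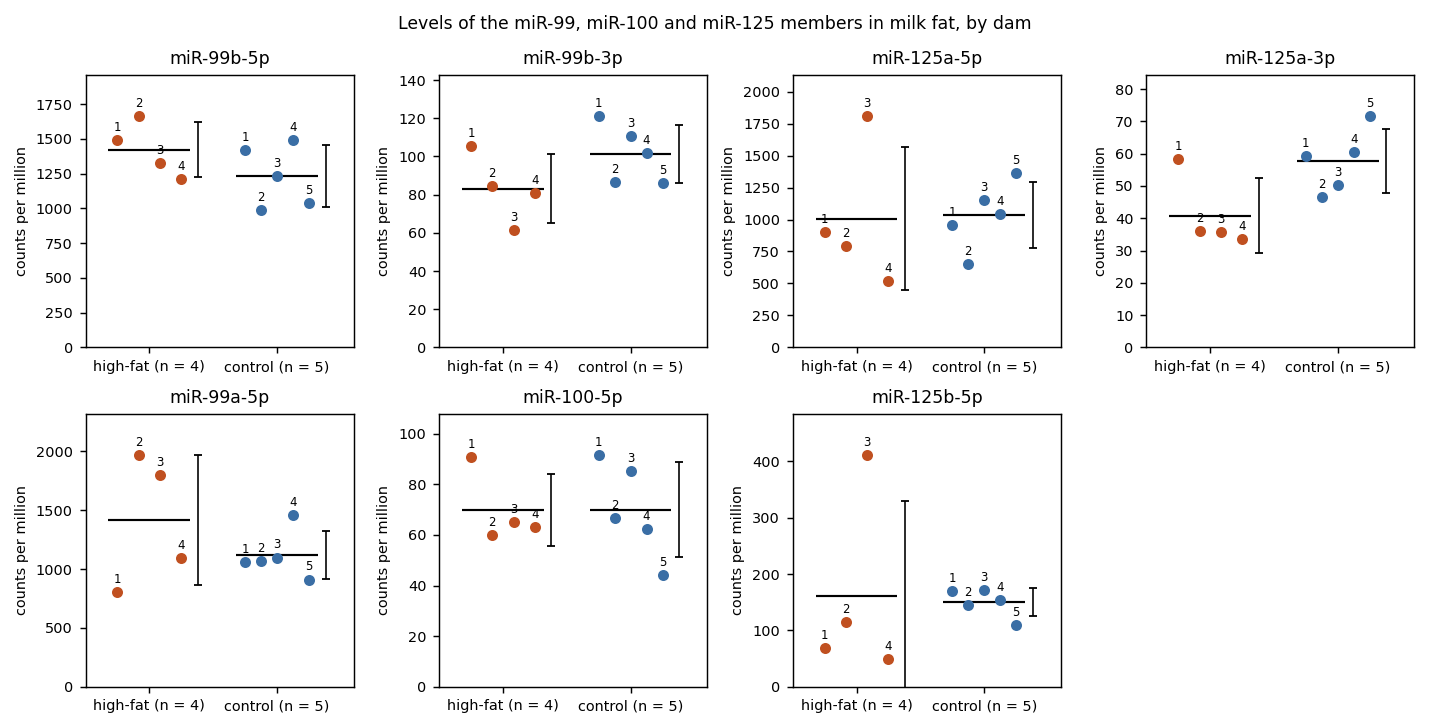
Level of each of the 7 names in CPM (vertical axis, from 0) in each high-fat (left, orange) and control (right, blue) library, numbered by dam; lines are group means and bars 1 SD, that of miR-125b-5p in high-fat milk running past 0. High-fat library 3 is at 410.4 CPM for miR-125b-5p, and the other 3 high-fat libraries lie between 48.8 and 115 CPM.

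Whether the diet changed these miRNAs in milk was asked first of the cluster on chromosome 17. miR-99b-5p, the mTOR-repressing arm of the cluster, had 1494, 1664, 1324 and 1210.5 CPM in high-fat libraries 1 to 4, against 1419, 986, 1230.0, 1493 and 1038 CPM in control libraries 1 to 5. High-fat library 2 lay above every control, high-fat library 1 exceeded the highest control by about 1 CPM, and the other pair lay within the control range. The log2 fold change, high-fat over control on library sizes scaled by trimmed means (TMM), was 0.22 ± 0.17 (SE), with a 95% interval from -0.15 to 0.59. Without high-fat library 2 it was 0.05. Its adjusted limma-voom p was 0.649. The levels in CPM do not include the TMM factors, 1.087 for high-fat library 1 and 0.980 for control library 4. Divided by these factors, high-fat library 1 would lie within the control range.

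miR-99b-3p, the other arm of the same hairpin, had 106, 84.7, 61.3 and 80.8 CPM in high-fat libraries 1 to 4, against 121, 86.8, 111, 102 and 85.9 CPM in control libraries 1 to 5. High-fat libraries 2, 3 and 4 lay below every control, and high-fat library 1 lay within the control range. The margin of high-fat library 2 was narrow, at 84.7 CPM against 85.9 CPM in control library 5. That control value rests on 72 counts, with a 95% Wilson interval from 68.2 to 108 CPM. These CPM do not include the TMM factors, which were 0.972 for high-fat library 2 and 1.005 for control library 5. Divided by these factors, high-fat library 2 would lie above control library 5, within the control range. The log2 fold change of miR-99b-3p was -0.31 ± 0.19 by limma-voom, with a 95% interval from -0.73 to 0.10 and an adjusted p of 0.649. The mean level was 83.1 ± 18.2 CPM in high-fat (SD, n = 4) and 101 ± 15.3 CPM in control milk (SD, n = 5).

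miR-125a-5p, a Lin28 repressor, had 905, 794, 1808 and 521 CPM in high-fat libraries 1 to 4, against 958, 655, 1156, 1042 and 1361 CPM in control libraries 1 to 5. High-fat library 3 was above and high-fat library 4 below every control, so the high-fat dams spread more widely than the controls on both sides. The log2 fold change was -0.15 ± 0.33 by limma-voom, with an adjusted p of 0.873 and a 95% interval from -0.88 to 0.58. Without high-fat library 3 it was -0.49, and without high-fat library 4 it was 0.09.

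miR-125a-3p, the other arm of that hairpin and the least abundant of the 7, had 58.2, 35.9, 35.6 and 33.6 CPM in high-fat libraries 1 to 4, against 59.4, 46.6, 50.2, 60.6 and 71.6 CPM in control libraries 1 to 5. As with miR-99b-3p, high-fat libraries 2, 3 and 4 lay below every control and high-fat library 1 lay within the control range. These levels rest on 136, 140, 72 and 64 counts in the high-fat and 100, 58, 138, 97 and 60 counts in the control libraries. The mean was 40.8 ± 11.6 CPM in high-fat (SD, n = 4) and 57.7 ± 9.81 CPM in control milk (SD, n = 5), and the log2 fold change was -0.49 ± 0.21 by limma-voom, with a 95% interval from -0.96 to -0.01. The limma-voom p was 0.0453 before and 0.441 after adjustment, so it did not pass, and the other 6 names all had an unadjusted p above 0.05.

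The names outside the chromosome 17 cluster were compared next. miR-99a-5p had 807, 1964, 1802 and 1095 CPM in high-fat libraries 1 to 4, against 1059, 1069, 1098, 1457 and 911 CPM in control libraries 1 to 5. High-fat libraries 2 and 3 were above every control and high-fat library 1 was below every control. The log2 fold change was 0.27 ± 0.29 by limma-voom, with a 95% interval from -0.37 to 0.91 and an adjusted p of 0.720. It was 0.55 without high-fat library 1, and -0.01 without high-fat library 2.

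miR-100-5p, which differs from miR-99a-5p by a single base, had 90.8, 60.0, 65.3 and 62.96 CPM in high-fat libraries 1 to 4, against 91.4, 66.7, 85.4, 62.5 and 44.2 CPM in control libraries 1 to 5. All 4 high-fat values lay within the control range. The mean was 69.8 ± 14.2 CPM in high-fat (SD, n = 4) and 70.0 ± 18.9 CPM in control milk (SD, n = 5). The log2 fold change was -0.05 ± 0.22 by limma-voom, with a 95% interval from -0.54 to 0.44 and an adjusted p of 0.910.

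miR-125b-5p, the paralog of miR-125a-5p with the same seed, had 68.5, 115, 410.4 and 48.8 CPM in high-fat libraries 1 to 4, against 169, 145, 171, 154 and 109.8 CPM in control libraries 1 to 5. High-fat library 3 was above every control, high-fat libraries 1 and 4 were below every control, and high-fat library 2 was within the control range. The value in high-fat library 3 rests on 830 counts, with a 95% Wilson interval from 383 to 439 CPM that covers counting error only. The log2 fold change was -0.44 ± 0.51 by limma-voom, with a 95% interval from -1.57 to 0.70 and an adjusted p of 0.742. Without high-fat library 3 it was -0.998, with a limma-voom p of 0.00548 before and 0.214 after adjustment. It was -0.10 without high-fat library 4 and -0.16 without high-fat library 1, so its size depends on which of these libraries is kept. Without high-fat libraries 1 and 3 together it was -0.86, with a limma-voom adjusted p of 0.279.

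Some markers of other cells were also high in high-fat library 3, where miR-125b-5p was highest, and others were not. Besides the red cell and muscle names given above, the stromal miRNA miR-199a-3p measured 284 CPM there. It had 17.1, 10.0 and 27.8 CPM in high-fat libraries 1, 2 and 4 and at most 29.8 CPM in a control library. miR-199a-5p was also highest in high-fat library 3, at 9.89 CPM. The most abundant stroma name, miR-143-3p, did not share this pattern, at 11982 CPM in high-fat library 3 and 25225 CPM in high-fat library 4. miR-145a-5p was at its lowest in high-fat library 3, at 273 CPM, and miR-214-3p was at most 1.57 CPM in any library. Of the leukocyte names, miR-150-5p and miR-155-5p were highest in high-fat library 3. The leukocyte sum was highest in high-fat library 1, at 11418 CPM, where miR-125b-5p was at 68.5 CPM. The 3p arm of the miR-125b-2 hairpin was not high in high-fat library 3. miR-125b-2-3p had 17.3 CPM there, the lowest of the 4 high-fat values, and 18.4, 22.3 and 28.3 CPM in high-fat libraries 1, 2 and 4. The part of other cell types in the miR-125b-5p level was not tested. In milk fat, fewer cells of a type and less RNA per cell cannot be told apart.

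After adjustment over all tested names, limma-voom called 0 of the 7 members at 0.05, against 0 of 312 tested names (0.0%), and the smallest adjusted p of any name was 0.0996. Before adjustment 1 of 7 fell below 0.05, miR-125a-3p, against 32 of 312 (10.3%). By direction the limma-voom background was 18 of 312 (5.77%) lower and 14 of 312 (4.49%) higher in high-fat milk, with 1 and 0 members. In no member did the diets separate fully, against 13 of 312 names (4.17%). At least 3 of the 4 high-fat libraries lay below every control for 2 of 7, the 3p arms of miR-99b and miR-125a, against 27 of 312 (8.65%). Counting either side of the controls it was still 2 of 7, against 58 of 312 (18.6%). For miR-99b-3p this rests on 84.7 CPM in high-fat library 2 against 85.9 CPM in control library 5. The TMM factors would reverse that order, so with them miR-99b-3p would not be counted here. The fold change was above 0 for 2 members, miR-99b-5p and miR-99a-5p, and below 0 for 5, with a median log2 fold change of -0.15 against 0.00 over the 312 tested names.

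**Figure D2:**
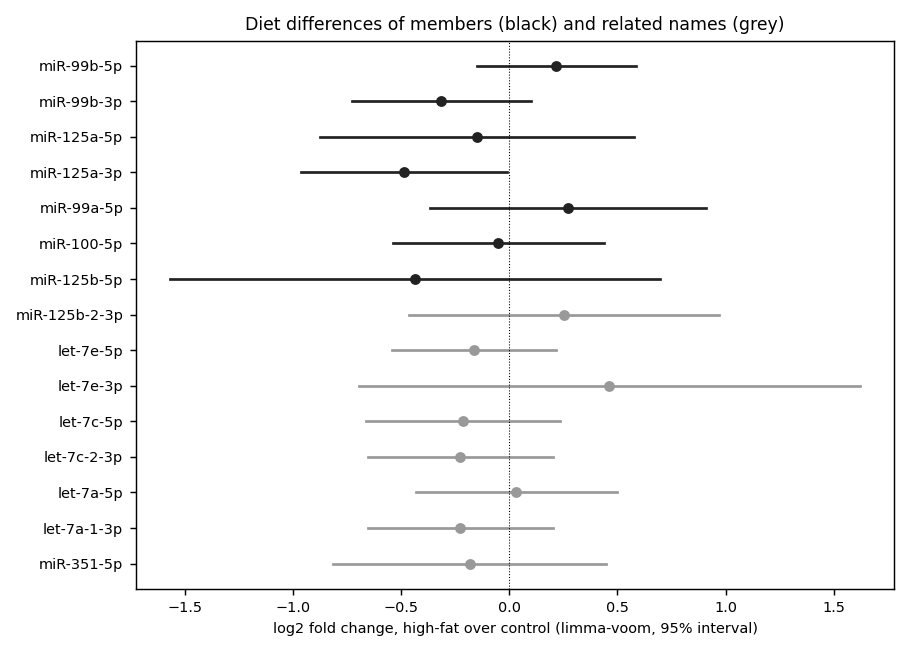
Log2 fold change of high-fat over control milk by limma-voom (horizontal axis, with 95% intervals) for the 7 names (black) and for the tested names from the same clusters, 2 let-7 arms from other genes and miR-351-5p (grey). The interval of miR-125a-3p ends at -0.01, and those of the other names cross 0.

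The cluster on chromosome 17 was then set against the other 3 names. The 4 arms of miR-99b and miR-125a summed to 2564, 2579, 3229 and 1845 CPM in high-fat libraries 1 to 4, against 2557, 1774, 2547, 2698 and 2557 CPM in control libraries 1 to 5. miR-99a-5p, miR-100-5p and miR-125b-5p together had 966, 2140, 2278 and 1206 CPM in high-fat libraries 1 to 4, against 1319, 1281, 1354, 1674 and 1065 CPM in control libraries 1 to 5. The cluster mean was 2554 ± 565 CPM in high-fat (SD, n = 4) and 2427 ± 370 CPM in control milk (SD, n = 5), and that of the other 3 names 1647 ± 658 CPM and 1338 ± 219 CPM in high-fat and control milk. The cluster made up 72.6%, 54.6%, 58.6% and 60.5% of the 7 names in high-fat libraries 1 to 4, and 66.0%, 58.1%, 65.3%, 61.7% and 70.6% in control libraries 1 to 5. High-fat library 1 had the highest and high-fat library 2 the lowest cluster share of the 9. The difference in the cluster mean, high-fat minus control, was 128 CPM, and it was -97.3 CPM without high-fat library 3 and -35.6 CPM without control library 2. That of the other 3 names was 309 CPM, and it ran from 98.9 CPM without high-fat library 3 to 536 CPM without high-fat library 1. No test was made of these sums, since the names in them were chosen together.

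**Figure D3:**
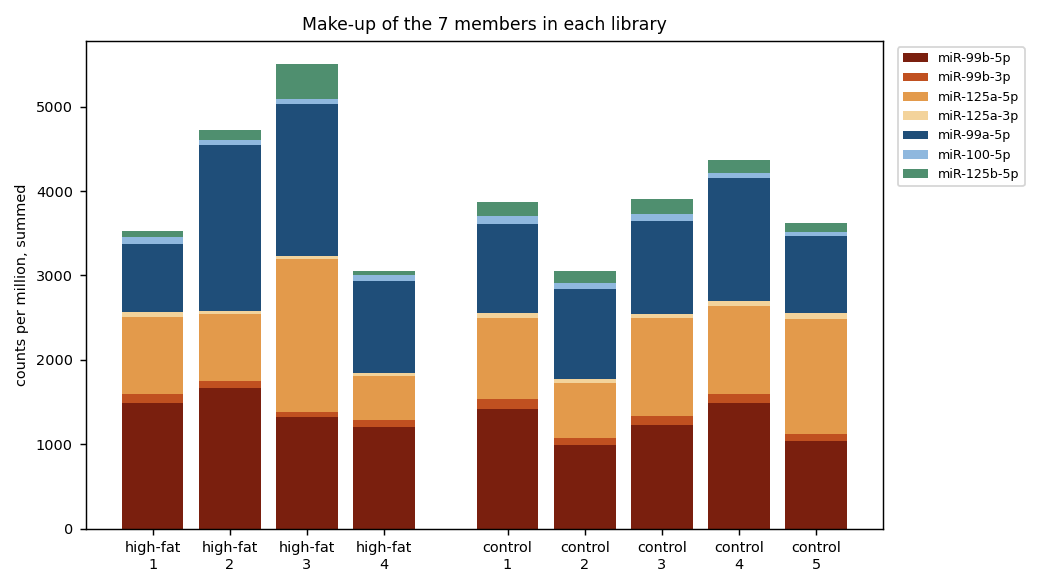
Stacked CPM (vertical axis, from 0) of the 7 names in each high-fat (left) and control (right) library. The stack is tallest in high-fat library 3, at 5506 CPM, and lowest in high-fat library 4, at 3052 CPM, just under control library 2 at 3055 CPM; brown and orange parts are the arms of the chromosome 17 cluster.

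Ratios of names within a library were compared because they do not depend on how libraries are scaled. The 5p arm of miR-99b was 14.1, 19.6, 21.5 and 14.9 times its 3p arm in high-fat libraries 1 to 4, against 11.7, 11.3, 11.1, 14.6 and 12.0 times in control libraries 1 to 5. High-fat libraries 2, 3 and 4 lay above every control, with high-fat library 4 just above control library 4. The mean log2 ratio was 4.11 ± 0.30 in high-fat (SD, n = 4) and 3.59 ± 0.16 in control milk (SD, n = 5), a difference of 0.52. The two-sided exact permutation p was 0.0317, and adjusted over the 6 ratios compared it was 0.190, which does not pass. The smallest p these group sizes allow is 0.0159. With that limit, a single ratio could not pass adjustment over 6 on its own, even with the diets fully separated. Among 83 pairs of tested names that differ only in 5p or 3p, 11 (13.3%) had an unadjusted exact permutation p below 0.05. In 8 pairs (9.64%) at least 3 of 4 high-fat libraries lay on one side of every control. Pairs in which only one arm carries a gene number, such as miR-125b-5p and miR-125b-2-3p, were left out.

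The 5p arm of miR-125a was 15.5, 22.0, 50.4 and 15.4 times its 3p arm in high-fat libraries 1 to 4, against 16.1, 13.9, 23.0, 17.1 and 18.9 times in control libraries 1 to 5. High-fat library 3 stood far above the rest, and the other 3 lay within the control range. The log2 ratio differed by 0.37 between diets (exact permutation p = 0.460, adjusted 0.667), and by -0.01 without high-fat library 3.

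The 5p arms of the 2 hairpins of the cluster did not keep a fixed ratio. miR-99b-5p was 1.65, 2.09, 0.733 and 2.32 times miR-125a-5p in high-fat libraries 1 to 4, against 1.48, 1.51, 1.06, 1.43 and 0.763 times in control libraries 1 to 5. High-fat libraries 1, 2 and 4 lay above every control and high-fat library 3 below every control. The log2 ratio differed by 0.36 between diets with an exact permutation p of 0.349, adjusted 0.667, and by 0.73 without high-fat library 3.

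The ratios between paralogs overlapped between diets. The log2 ratio of miR-99b-5p to miR-99a-5p averaged 0.09 ± 0.59 in high-fat and 0.14 ± 0.20 in control milk, with an exact permutation p of 0.873. That of miR-125a-5p to miR-125b-5p averaged 3.01 ± 0.70 and 2.76 ± 0.54 in high-fat and control milk, with an exact permutation p of 0.540. That of miR-99a-5p to miR-100-5p averaged 4.27 ± 0.84 in high-fat and 4.02 ± 0.43 in control milk, with an exact permutation p of 0.556. Over the 6 ratios no adjusted p was below 0.190. The last of these ratios ran from 8.87 times in high-fat library 1 to 32.6 times in high-fat library 2, so that names 1 base apart did not keep a fixed ratio.

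**Figure D4:**
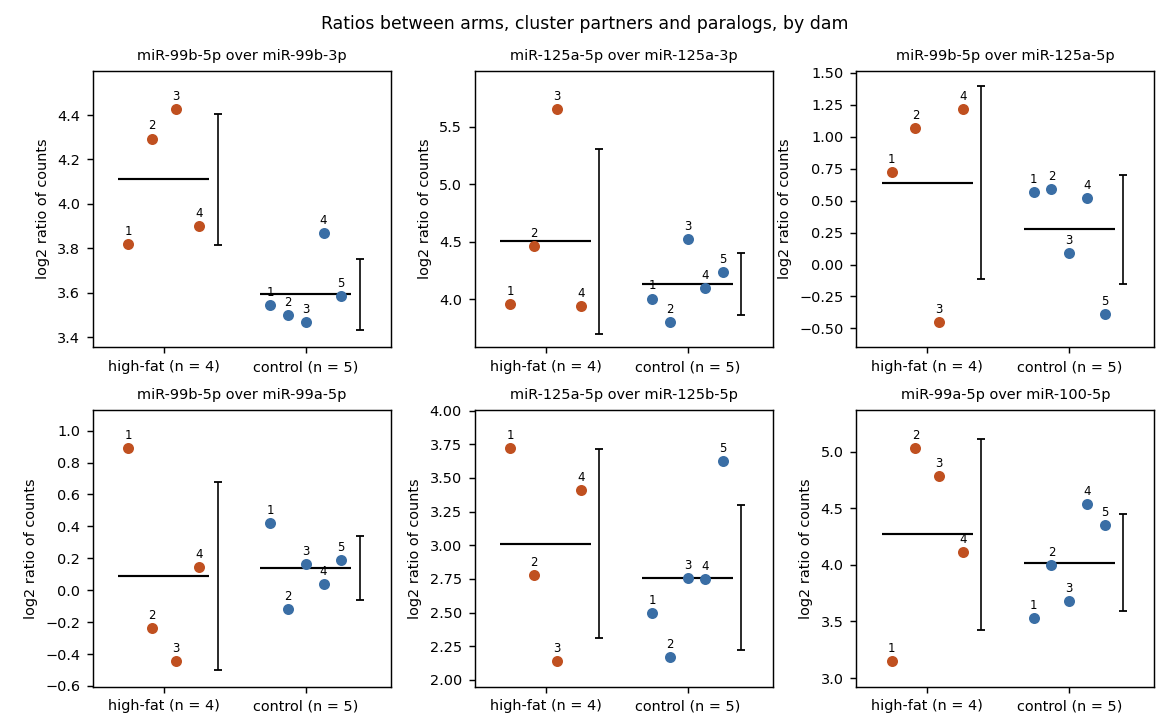
Log2 ratio of counts (vertical axes) for 6 pairs of names in each high-fat (left, orange) and control (right, blue) library, numbered by dam, with group means and 1 SD. In the first panel 3 of 4 high-fat libraries lie above every control, and in the second high-fat library 3 is at 5.66 and every other library at 4.52 or less.

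The genomic clusters were also read across dams, as the correlation of log2 CPM over the 9 libraries. miR-99b-5p and miR-125a-5p, from the cluster whose mature arms span 683 bases, had a Pearson r of 0.03 with an exact permutation p of 0.936. Their Spearman rho was -0.05 with an exact p of 0.912. miR-99a-5p and miR-125b-5p had an r of 0.54 with an exact permutation p of 0.129 and a rho of 0.33 with an exact p of 0.385. miR-100-5p and miR-125b-5p had an r of 0.06 with an exact permutation p of 0.874 and a rho of 0.40 with an exact p of 0.291. None of these 3 pairs from a shared cluster had an exact permutation p below 0.05. The counts of miR-125b-5p pool its genes on chromosomes 16 and 9, so its pairs do not compare names of 1 cluster alone.

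Among pairs with a shared seed, miR-125a-5p and miR-125b-5p had an r of 0.76 with an exact permutation p of 0.0192, adjusted 0.115 over the 6 relations, and a rho of 0.63 with an exact p of 0.0760, adjusted 0.456. Without high-fat libraries 3 and 4, the 2 farthest from the median of miR-125a-5p, r was 0.14, so the relation rests on those libraries. miR-99b-5p and miR-99a-5p had an r of 0.57 with an exact permutation p of 0.105 and a rho of 0.43 with an exact p of 0.250, and r was 0.58 without the 2 libraries farthest from the median. miR-99a-5p and miR-100-5p had an r of -0.20 with an exact permutation p of 0.612 and a rho of -0.37 with an exact p of 0.336. Leaving out 1 library in turn, its r ran from -0.73 without control library 5, with an adjusted exact permutation p of 0.111, to -0.01 without high-fat library 1. Without the 2 farthest libraries r was -0.01 for miR-99b-5p with miR-125a-5p, 0.44 for miR-99a-5p with miR-125b-5p, -0.13 for miR-100-5p with miR-125b-5p and -0.10 for miR-99a-5p with miR-100-5p. None of the 6 passed an adjusted exact permutation p of 0.05. Each diet has fewer than 6 libraries, so no correlation was made within a diet. With values centred on the mean of their diet, r was 0.75 for miR-125a-5p with miR-125b-5p and 0.11 for miR-99b-5p with miR-125a-5p.

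**Figure D5:**
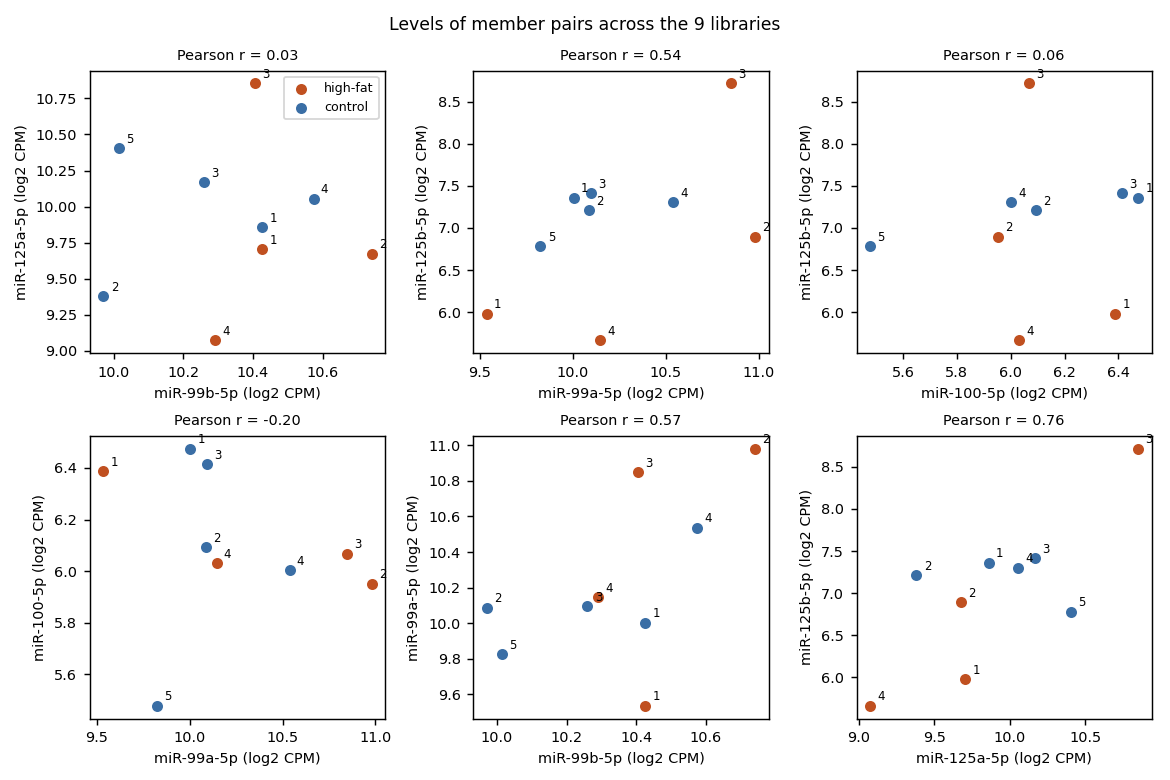
Log2 CPM of one name against another in the 9 libraries (orange high-fat, blue control, numbered by dam) for the 6 pairs of names compared, with Pearson r. In the last panel high-fat libraries 3 and 4 hold the upper and lower ends.

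The names whose pattern over the 9 libraries was most like each member were taken as the 3 with the highest Pearson r of log2 CPM among all other tested names, as a description with no test. For miR-99b-5p these were miR-676-5p (r = 0.82), let-7d-3p (0.77) and miR-429-3p (0.74), and for miR-99b-3p they were miR-132-3p (0.86), let-7b-3p (0.86) and miR-34a-5p (0.82). For miR-125a-5p they were let-7a-5p (0.81), miR-29b-1-5p (0.79) and miR-125b-5p (0.76), and for miR-125a-3p miR-27b-5p (0.87), miR-361-5p (0.85) and miR-3470a (0.82). For miR-99b and for miR-125a, the 5p and 3p arms shared none of these nearest names, a difference that was not tested. For miR-99a-5p they were miR-365-3p (0.83), let-7g-5p (0.79) and miR-330-5p (0.77). For miR-100-5p they were miR-1983 (0.79), miR-669a-5p (0.78) and miR-669p-5p (0.78), the last 2 with identical counts. Those 2 averaged 4.92 CPM and had 1.19 CPM in control library 5, under its 3-count level of 3.58 CPM. miR-3470a, named for miR-125a-3p, was at 319 CPM in control library 5 and at most 49.8 CPM in any other. For miR-125b-5p the nearest names were miR-30d-5p (0.92), miR-23b-3p (0.80) and miR-423-3p (0.80). miR-30d-5p was at 14623 CPM in high-fat library 3 and 9035 CPM in high-fat library 4, the libraries in which miR-125b-5p was highest and lowest.

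The other names from the hairpins of the 3 clusters, 10 in all, were read beside the members. Of the 10, 5 were tested and limma-voom called 0 of them after adjustment, 3 with a fold change above 0 and 2 below. let-7e-5p, which lies between miR-99b and miR-125a, had 678, 676, 717 and 623 CPM in high-fat libraries 1 to 4, against 688, 551, 932, 759 and 907 CPM in control libraries 1 to 5. All high-fat values lay within the control range, and the log2 fold change was -0.16 ± 0.17 by limma-voom, with an adjusted p of 0.720. let-7c-5p and let-7a-5p, each encoded by more than one gene, were the abundant neighbours. let-7c-5p averaged 11712 ± 1576 CPM in high-fat (SD, n = 4) and 13986 ± 3790 CPM in control milk (SD, n = 5), and let-7a-5p 13211 ± 2445 CPM and 13151 ± 3552 CPM in high-fat and control milk. The 5 untested neighbours, among them miR-99a-3p, miR-100-3p and miR-125b-1-3p, had at most 14 counts each over all 9 libraries.

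Of other names with a member's seed, miR-351-5p, a mouse relative of miR-125 encoded on the X chromosome, had 74.9, 58.8, 53.9 and 27.8 CPM in high-fat libraries 1 to 4, against 72.4, 41.0, 55.3, 74.4 and 57.3 CPM in control libraries 1 to 5. Its log2 fold change was -0.18 ± 0.28 by limma-voom, with an adjusted p of 0.835. In high-fat library 3, where miR-125a-5p and miR-125b-5p were highest, miR-351-5p lay within the control range. miR-6367 and miR-6394, which carry the same seed, had no counts in any library.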

How the data were processed

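Small RNA of washed milk fat was sequenced from 4 high-fat and 5 control dams. The authors deposited read counts per pair of precursor and mature miRNA, written with comma separators that were removed on reading. The submitters' processing notes name cutadapt 1.9.1 and build GRCm38. For the aligner and the counting rule, the sources used here give nothing. In each library the highest row of a mature name was kept. Libraries of one diet differed by a chi-square per degree of freedom of at least 50.2, so none was a repeat of another.

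Because of the separators the columns were not recorded under the count unit, and no count-model package was used. limma 3.58.1 in R 4.3.3 fitted log2 CPM with voom weights and TMM library sizes (30% and 5% trimmed), with diet as the only term. A name entered the test with 10 or more counts (at the depth of the median library) in 4 or more libraries and 15 or more in total, and p-values were adjusted by Benjamini-Hochberg over 312 names. Ratios used 0.5 added counts and exact permutation tests, and correlations exact permutations of pairings, in Python 3.11.15 with scipy 1.17.1. Nearest names were named by Pearson r. Members, lists and tests were chosen with earlier results of these data known. Same-numbered dams of the diets are different animals, so no pairing was used in the reported values. Wilson intervals of levels cover counting error only, and limma intervals include the spread between dams.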

Additional observations from a re-analysis of the deposited data

Results flagged for a closer look

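The values of each diet were searched in 30 groups for 1 library that lies apart, and 3 groups held one. Chance gives about 1 in 20 groups, or 1.5 of these. miR-125a-3p measured 58.2 CPM in high-fat library 1, far above the other 3 high-fat libraries. miR-100-5p measured 90.8 CPM in the same library, above the other 3 and within the control range. It only just passed the search, with a Dixon q of 0.8301 against a limit of 0.829. The search used CPM without the TMM factors, and with them this value would not pass. The 410.4 CPM of miR-125b-5p in high-fat library 3 did not pass. The 4 arms of miR-99b and miR-125a summed to 1774 CPM in control library 2, far below the other controls. High-fat library 1 also held the most leukocyte miRNAs, 11418 CPM, and the part of those cells in its values was not tested.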

How the results depend on the processing

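None of the 7 names passed an adjusted p of 0.05 under any alternative run. The number of miRNAs called by limma-voom, 0 as reported, was 4 with no filter on low counts, 2 with limma-trend, 2 with library quality weights and 3 with the replicate block. Leaving out each library in turn it ran from 0 to 4, with 4 calls without control library 5, the shallowest. No member was among those called. With total counts, median-of-ratios factors, summed rows, or without high-fat libraries 1 and 3, it was 0.

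The log2 fold change of miR-100-5p was 0.020 with limma-trend and ran from -0.16 to 0.045 over the fits that each left out 1 library. That of miR-99a-5p ran from -0.0075 to 0.55 and that of miR-125a-5p from -0.49 to 0.092. The other 4 names kept their direction under the alternatives run, and leaving out 1 library miR-99b-5p ran from 0.05 to 0.29, miR-99b-3p from -0.42 to -0.20, miR-125a-3p from -0.63 to -0.43 and miR-125b-5p from -0.998 to -0.10. The log2 ratio of the miR-99b arms ran from 0.41 to 0.61, that of miR-99b-5p to miR-99a-5p from -0.32 to 0.13, that of the miR-125a arms from -0.012 to 0.56 and that of miR-99a-5p to miR-100-5p from -0.0024 to 0.62. Leaving out 2 libraries turned the correlation of miR-99b-5p with miR-125a-5p to -0.0057 and that of miR-100-5p with miR-125b-5p to -0.13. Leaving out 1 library, which was added after seeing the data, these ran from -0.23 to 0.25 and from -0.036 to 0.26. The other 4 correlations kept their sign, with ranges of 0.55 to 0.86 for miR-125a-5p with miR-125b-5p, 0.32 to 0.72 for miR-99a-5p with miR-125b-5p, 0.33 to 0.77 for miR-99b-5p with miR-99a-5p and -0.73 to -0.01 for miR-99a-5p with miR-100-5p. The cause of these changes was not tested.

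Replicate numbers are shared by the diets but name different dams, and the correlations of same-numbered dams were 0.06, -0.08, 0.20 and -0.16, so they were not used as pairs. With the replicate block the log2 fold change of miR-125a-3p was -0.42 and that of miR-125b-5p -0.35. Depth limits miR-125a-3p and miR-100-5p most, with as few as 58 and 37 counts in a library.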

Other observations

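let-7a-1-3p and let-7c-2-3p, the 3p arms of different let-7 genes, had the same counts in 8 of 9 libraries and differed by 1 count in high-fat library 1, with 962 and 961. They cannot be told apart in this table. Among the other arms of the members, miR-99a-3p had 4 counts over the 9 libraries, against 24495 for miR-99a-5p, and miR-100-3p had 2, against 1307 for miR-100-5p. miR-99b-3p, which has the seed of miR-99a-3p, had 1707 counts, against 25219 for miR-99b-5p.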
